A study of Mus musculus with 11 samples.

Results

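The 9 genes described here encode chemokine receptors known for guiding T cells into inflamed or non-lymphoid tissue. They are Cxcr6, Cxcr3, Cxcr4, Ccr1, Ccr2, Ccr4, Ccr6, Ccr8 and Ccr10, chosen by name from the 52997 genes of the deposited count table, of which 12932 were tested. Their transcripts were counted in 11 libraries of clonotype+ Treg cells, the regulatory T cells that carry the vTreg53 T-cell receptor of a Treg clone from visceral adipose tissue (VAT). The cells came from male vTreg53 Tg+ TCR transgenic mice on the C57BL/6 background (with a Foxp3-GFP reporter and the CD45.2 marker, per the study's methods), were sorted from pooled spleen and lymph nodes (Spl/LN), and were transferred into CD45.1 B6 mice. Recipients were primed under the skin 6 weeks later with complete Freund's adjuvant and boosted 1 week after that into the peritoneum with incomplete Freund's adjuvant. Fat1562, a surrogate agonist peptide for this receptor, was either left out (adjuvant alone) or mixed in (adjuvant/Fat1562), and 1000 cells per library were sorted again from Spl/LN or VAT a week later, at an age labelled 15 weeks. The labels call the groups without peptide unimmunized, with PBS, whereas the study's text describes adjuvant alone, which is the name used below. If the labels hold, effects of the peptide and of the adjuvant cannot be told apart. Results below credited to the peptide would then cover both. The groups held 3 libraries for Spl/LN with adjuvant alone, 3 for Spl/LN with adjuvant/Fat1562, 2 for VAT with adjuvant alone and 3 for VAT with adjuvant/Fat1562. All cells therefore share 1 transgenic receptor and 1 history of transfer, and the recipients' own Treg cells were not analysed here. By the study's methods, VAT was digested with collagenase before sorting, and no such step is described for Spl/LN. Differences between the tissues therefore cannot be told apart from effects of this handling.

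Chemokine receptors are G protein-coupled receptors on the cell surface that bind small secreted chemokines, activate inhibitory G proteins, and steer the crawling and arrest of leukocytes along chemokine gradients. Naive and recirculating T cells rely on Ccr7 to enter lymph nodes, whereas effector, memory and tissue Treg cells carry sets of receptors matched to chemokines made in inflamed or barrier tissue. In VAT, Treg cells are a tissue population with its own transcriptional program, and Ccr2 and Ccr8 are among the receptors often used to describe tissue Treg cells.

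Sequence upstream of the annotated start is shown for 3 receptors that had more transcript in VAT (Cxcr6, Ccr1 and Ccr8) and for 1 that did not (Ccr6), so that the genes compared below can be placed on the genome. Each is the 250 bases before the RefSeq start in build GRCm38.p6, 5′ to 3′ on the strand of the gene, with motif matches in capitals. Upstream entries were found for 8 of the 9 receptors, Ccr10 having none. The Cxcr6 window is chr9:123806227-123806476 on the plus strand, that of Ccr1 is chr9:123968693-123968942 on the minus strand, that of Ccr8 is chr9:120091883-120092132 on the plus strand and that of Ccr6 (the first of its 2 entries) is chr17:8235793-8236042 on the plus strand.
Cxcr6: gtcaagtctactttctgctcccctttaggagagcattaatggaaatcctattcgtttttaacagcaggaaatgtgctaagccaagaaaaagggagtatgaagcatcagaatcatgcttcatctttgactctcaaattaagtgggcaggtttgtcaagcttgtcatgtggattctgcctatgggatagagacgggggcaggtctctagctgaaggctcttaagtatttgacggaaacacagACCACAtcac
Ccr1: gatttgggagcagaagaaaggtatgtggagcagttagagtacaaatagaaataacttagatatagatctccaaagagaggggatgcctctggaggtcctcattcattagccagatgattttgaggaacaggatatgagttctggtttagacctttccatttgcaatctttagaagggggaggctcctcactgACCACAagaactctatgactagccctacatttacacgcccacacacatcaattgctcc
Ccr8: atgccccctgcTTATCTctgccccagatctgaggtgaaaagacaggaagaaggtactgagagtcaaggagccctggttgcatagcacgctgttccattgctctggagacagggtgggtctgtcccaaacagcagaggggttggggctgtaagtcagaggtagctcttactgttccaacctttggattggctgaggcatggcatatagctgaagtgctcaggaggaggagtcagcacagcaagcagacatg
Ccr6: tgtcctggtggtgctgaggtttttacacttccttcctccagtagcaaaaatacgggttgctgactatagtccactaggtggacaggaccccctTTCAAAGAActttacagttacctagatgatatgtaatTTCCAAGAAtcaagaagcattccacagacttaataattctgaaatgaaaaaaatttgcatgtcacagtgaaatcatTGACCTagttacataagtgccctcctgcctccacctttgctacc
The capitals mark TGTGGT, the core that RUNX factors bind, read on the opposite strand in Cxcr6 and in Ccr1, where the match begins 10 and 58 bases before the start. In Ccr8 they mark AGATAA, the core bound by factors of the Gata3 family, on the opposite strand 239 bases before the start. In Ccr6 they mark 2 matches to the STAT motif TTCNNNGAA and 1 to AGGTCA, a nuclear receptor core, on the opposite strand. Both strands of all 32536 RefSeq upstream windows of the same length were searched, and 14.0% held TGTGGT, 9.97% AGATAA, 7.04% TTCNNNGAA and 14.0% AGGTCA. Ccr6 has a second start, so the 8 receptors gave 9 windows. TGTGGT was found in 3 of them (Cxcr6, Ccr1 and Cxcr3), and AGATAA in 3 (Ccr8, Ccr2 and the second of Ccr6), so neither was limited to receptors that were higher in VAT. Some windows hold exon bases of the GENCODE vM21 annotation used below for gene positions, 122 in that of Cxcr3 and 19 in that of Ccr8. The Ccr2 window also runs into annotated exon. The AP-1 motif TGACTCA (or its reverse complement TGAGTCA, in 4.45% of all windows) was found in 1 receptor window, that of Ccr4, GGAAAA (NFAT, 20.4%) in 1, that of Ccr2, and GGGCGG (KLF and SP factors, 33.0%) in 1, that of Cxcr4, while AGGTGTGA (T-box, 1.12%) and GGGACTTTC (NF-kB, 0.292%) were found in 0. These matches are descriptions of the letters and were not tested for use.

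The libraries held 4490242 to 6570057 gene counts (median 5289428). The 8 Treg markers listed, Foxp3 among them, were above 10 counts in every library. Of 12 macrophage and monocyte markers listed, Adgre1 and Csf1r had at most 1 count in each VAT library, while Itgam had 0 to 53 counts there, Cd68 5 to 22 and Lyz2 1 to 14. In Spl/LN, normalized counts reached 8.02 for Adgre1, 16.4 for Csf1r, 76.4 for Itgam, 25.7 for Cd68 and 70.5 for Lyz2. The B cell marker Ms4a1 had at most 6 counts in any library. Summed over these 12, normalized counts ranged from 44.9 to 284 per library, the highest being a VAT library with adjuvant alone in which Ly6c2 had 201 counts. Over 8 B cell markers the sums were 238 to 401 and 255 to 359 in the Spl/LN groups (adjuvant alone, then adjuvant/Fat1562) and 107.6 to 186 and 91.2 to 141 in the VAT groups, mostly Cd22 and Cd79b. Over 8 dendritic cell markers, in the same order, they were 122 to 481, 64.2 to 77.1, 236 to 286 and 167 to 301, carried by Zbtb46, Xcr1, H2-Ab1 and H2-Aa, while Flt3, Itgax, Siglech and Clec9a had at most 6 counts in any library. All 4 dendritic markers tested were called higher in VAT than in Spl/LN with adjuvant/Fat1562, and 1 of them with adjuvant alone. The peptide lowered 2 of the 4 in Spl/LN, H2-Ab1 (log2 fold change -2.84, SE 0.57, adjusted p = 0.00875) and H2-Aa (-6.09, SE 1.23, adjusted p = 0.0085). Normalized H2-Aa counts in Spl/LN ran from 8.35 to 180 with adjuvant alone and from 0 to 2.87 after the peptide, so its fitted size rests on values near 0. Those of H2-Ab1 ran from 34.4 to 233 and from 10.4 to 20.3. Neither gene was refitted with a library left out. Of 4 macrophage and monocyte markers tested, Itgam was called lower in VAT with adjuvant alone (-3.14), and in VAT after the peptide Itgam was called higher (3.23) and Ly6c2 lower (-4.11). Normalized Ly6c2 counts in VAT were 3.26 and 251 with adjuvant alone and 4.08 to 13.5 after the peptide, so its call rests on 1 library. Those of Itgam were 0 and 6.25, near the floor, and 12.2 to 59.7. Neither marker was refitted with a library left out. Of 4 B cell markers tested, Cd22 was called lower in VAT under both treatments (-4.40 and -3.43) and Cd79b after the peptide (-1.18). Over 5 endothelial markers the sums were 464 to 519, 499 to 575, 249 to 302 and 416 to 601, nearly all Pecam1, which was called lower in VAT with adjuvant alone (-0.89) and higher after the peptide in VAT (1.00), and over 8 CD8 and NK markers 118 to 219, 119.9 to 178, 212 to 351 and 139 to 166, of which 1 of 4 tested was called in each comparison but that of the peptide in VAT, where 0 were. Sums over 10 adipocyte and stromal markers lay between 16.3 and 49.5 and over 8 granulocyte and mast cell markers between 0.913 and 11.6. The part of these cells in the receptor results was not tested. In bulk libraries like these, fewer cells of a kind and less RNA per cell cannot be told apart.

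Levels of different receptors were set side by side per kb of annotated exon. The order, shares and sums depend on that length, which is 6.76 kb for Ccr2 and 1.175 kb for Ccr8. Without this division, mean normalized counts were highest for Ccr2 in both Spl/LN groups and in VAT with adjuvant alone. Summed over the 9 receptors, the normalized count per kb was 2230 ± 68.0 (SD, n = 3) for Spl/LN with adjuvant alone, 2983 ± 342 (SD, n = 3) for Spl/LN with adjuvant/Fat1562, 7732 ± 547 (SD, n = 2) for VAT with adjuvant alone and 8898 ± 995 (SD, n = 3) for VAT with adjuvant/Fat1562. Every VAT library lay above every Spl/LN library. Ccr8 had the highest level per kb in both Spl/LN groups, overlapping Cxcr3 after the peptide, and in VAT with adjuvant/Fat1562, where it made up 53.7% ± 2.67 (SD, n = 3) of the sum. In VAT with adjuvant alone Cxcr6 came first at 2809 ± 75.0 per kb (SD, n = 2) and Ccr8 second at 2381 ± 550 (SD, n = 2), 2 receptors whose libraries overlapped in that group. With adjuvant alone, Cxcr6 was 9.29% ± 1.36 of the summed level in Spl/LN (SD, n = 3) and 36.4% ± 1.61 of that in VAT (SD, n = 2), and Ccr6 was 15.0% ± 0.318 and 3.65% ± 0.534. At the bottom of the order stood Cxcr4 in Spl/LN with adjuvant alone, at 12.8 ± 7.15 per kb (SD, n = 3), and Ccr10 in the other 3 groups. In Spl/LN with adjuvant/Fat1562 the last places were not apart, Cxcr4 having 20.8 ± 17.1 per kb and Ccr10 11.3 ± 6.66 (SD, n = 3 each), with libraries that overlapped.

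**Figure D1:**
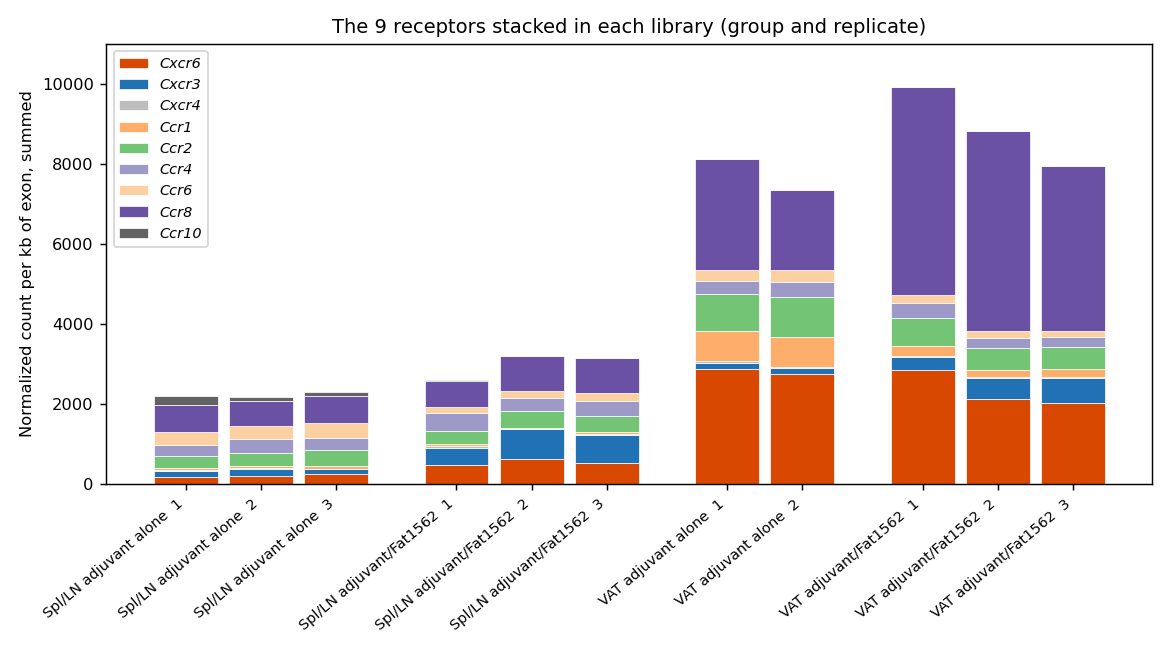
Stacked bars give the normalized count per kb of exon of each receptor in each of the 11 libraries, named by group and replicate. The VAT bars reach 7345 to 9924 and the Spl/LN bars 2178 to 3199.5, and the purple Ccr8 and orange Cxcr6 segments fill most of the VAT bars.

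Counts were compared with edgeR's quasi-likelihood test in 1 fit of all 4 groups, with Benjamini-Hochberg adjustment over the 12932 tested genes, and a gene is said to be called where its adjusted p is under 0.05. All 9 receptors passed the filter on low counts, Ccr10 only through its Spl/LN groups. A call of Ccr10 between tissues could therefore only be lower in VAT, so its place in the counts below is no support. Of the 9 receptors, 4 were higher in VAT than in Spl/LN with adjuvant alone (Cxcr6, Ccr1, Ccr2 and Ccr8) and 1 was lower (Ccr10), where 9.09% of all tested genes were called higher and 7.17% lower. The same numbers, 4 higher and 1 lower, were called between VAT and Spl/LN with adjuvant/Fat1562, against 8.26% and 6.73% of all tested genes. The peptide raised 2 receptors in VAT (Cxcr3 and Ccr8) and lowered 3 (Ccr1, Ccr2 and Ccr6), against 4.32% and 3.97% of tested genes. In Spl/LN it raised 2 (Cxcr6 and Cxcr3) and lowered 3 (Ccr1, Ccr6 and Ccr10), against 2.58% and 1.40%. The median log2 fold change of the 9 receptors was 1.51 in the first of these comparisons, 0.36 in the second, -0.50 in the third and 0.26 in the last, beside -0.03, -0.01, 0.01 and -6.95e-06 over all tested genes. The 4 comparisons share groups with one another, so their values are given side by side and are not independent.

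**Figure D2:**
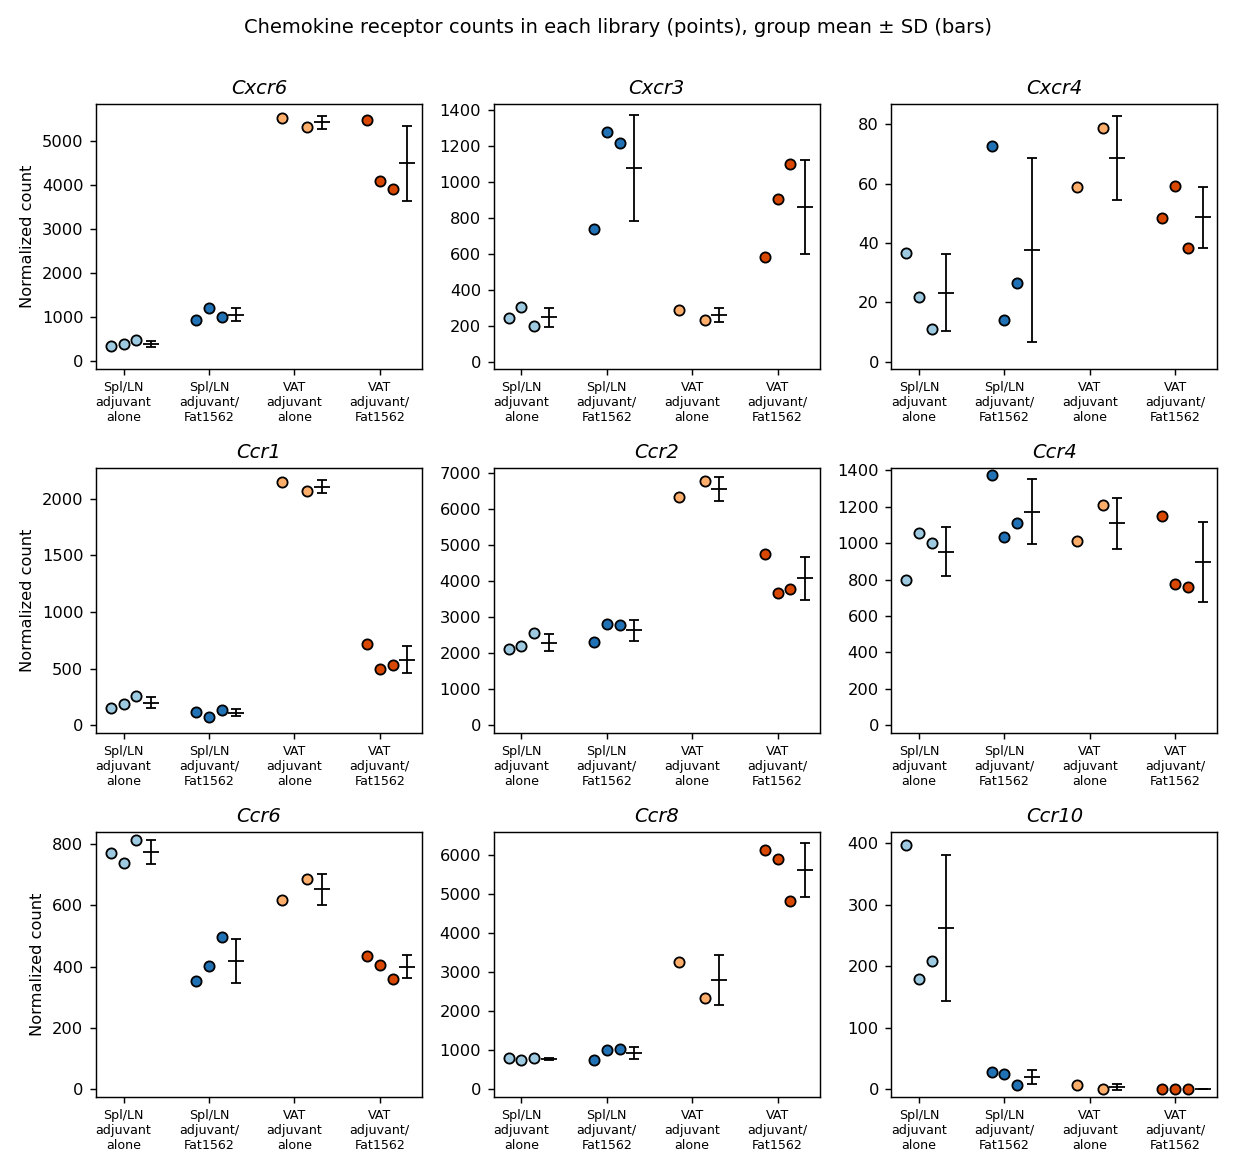
Normalized counts of the 9 receptors in each library (points, 1 panel per gene, each with its own linear axis), by group, with the group mean and SD beside them. Cxcr6, Ccr1, Ccr2 and Ccr8 sit higher in both VAT groups than in both Spl/LN groups, Cxcr3 sits higher in both adjuvant/Fat1562 groups, and Ccr10 is at 0 to 7.61 in VAT.

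**Figure D3:**
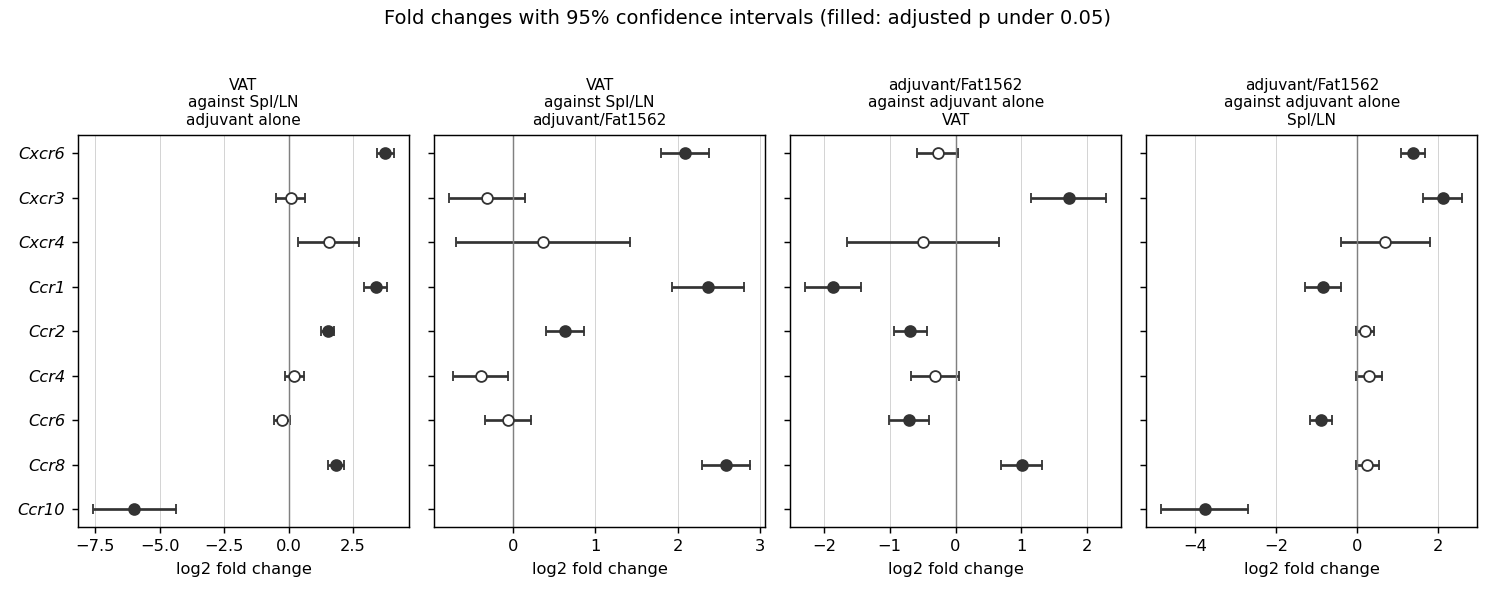
Points give the log2 fold change of each receptor in the 4 comparisons and bars its 95% confidence interval, filled where the adjusted p of edgeR's quasi-likelihood test is under 0.05. Ccr10 is not drawn in the 2 comparisons that use VAT with adjuvant/Fat1562, where all libraries were at 0.

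Cxcr6 is the receptor for the membrane-bound chemokine Cxcl16 and is associated with T cells that settle in tissue. The gene lies at chr9:123806475-123811760 on the plus strand (GRCm38, GENCODE vM21), inside the gene Fyco1 on the opposite strand, with 0 shared exon bases. Normalized counts were 341, 384 and 477 in Spl/LN with adjuvant alone, 933, 1222 and 1015 in Spl/LN with adjuvant/Fat1562, 5526 and 5321 in VAT with adjuvant alone, and 5478, 4094 and 3903 in VAT with adjuvant/Fat1562. No Spl/LN library reached any VAT library, and the Spl/LN groups did not overlap each other, while those of VAT did. Cxcr6 was 13.5-fold higher in VAT with adjuvant alone (log2 fold change 3.76, SE 0.16, adjusted p = 2.01e-11) and 4.25-fold higher in VAT with adjuvant/Fat1562 (2.09, SE 0.14, adjusted p = 1.36e-08). In Spl/LN the peptide raised it 2.63-fold (1.40, SE 0.14, adjusted p = 2.74e-05), whereas in VAT the difference of -0.27 (SE 0.15, adjusted p = 0.313) was not called. Fyco1, which spans it, was called in 0 of these comparisons and had 271 ± 57.0 (SD, n = 3) to 411 ± 38.5 (SD, n = 2) normalized counts over the groups.

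Cxcr3 is the receptor for the interferon-induced chemokines Cxcl9, Cxcl10 and Cxcl11 and is a well known target of T-bet (Tbx21). It lies at chrX:101731535-101734269 on the minus strand. Its normalized counts were 243, 304 and 197 in Spl/LN with adjuvant alone and 289 and 235 in VAT with adjuvant alone. After adjuvant/Fat1562 they were 738, 1279 and 1217 in Spl/LN and 581, 907 and 1100.3 in VAT, above every library without peptide in the same tissue. The peptide raised Cxcr3 4.36-fold in Spl/LN (log2 fold change 2.12, SE 0.23, adjusted p = 4.69e-05) and 3.29-fold in VAT (1.72, SE 0.27, adjusted p = 0.000531). The tissues overlapped within each treatment, with differences between VAT and Spl/LN of 0.09 (SE 0.27, adjusted p = 0.876) and -0.32 (SE 0.22, adjusted p = 0.38). Tbx21 itself had 111 and 31.2 normalized counts in VAT with adjuvant alone and 414, 639 and 399.9 after the peptide. It rose by 2.75 on the log2 scale in VAT (SE 0.38, adjusted p = 0.000145), a size that depends on which adjuvant-alone library is kept (3.95 without replicate 1 and 2.12 without replicate 2, adjusted p = 3.99e-05 and 0.00181), and by 1.84 in Spl/LN (SE 0.32, adjusted p = 0.00256).

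Cxcr4, the receptor for Cxcl12 and a retention signal in bone marrow and stroma, was not called in any comparison by the test described. It lies at chr1:128588199-128592293 on the minus strand. Normalized counts were 36.7, 21.9 and 10.98 in Spl/LN with adjuvant alone, 72.6, 13.9 and 26.5 in Spl/LN with adjuvant/Fat1562, 58.7 and 78.7 in VAT with adjuvant alone, and 48.4, 59.1 and 38.4 in VAT with adjuvant/Fat1562. With adjuvant alone both VAT libraries lay above the 3 Spl/LN libraries, but the difference of 1.56 (SE 0.56, adjusted p = 0.0704) was not called, and leaving out Spl/LN adjuvant-alone replicate 1 made it 2.06 and called it (adjusted p = 0.0332). It was also called without either Spl/LN adjuvant/Fat1562 replicate 1 or 2 (adjusted p = 0.036 and 0.0462), by limma with quantile normalization (0.036), by DESeq2 (0.0463), with no filter on low counts (0.0157) and with a filter on the coefficient of variation (0.04), and over all alternatives its adjusted p ranged from 0.0157 to 0.281. In the other comparisons the groups overlapped, with differences of 0.36 (SE 0.50) between tissues after the peptide, -0.50 (SE 0.55) for the peptide in VAT and 0.70 (SE 0.52) for the peptide in Spl/LN, all with adjusted p over 0.5.

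Ccr1 is a receptor for inflammatory chemokines such as Ccl3 and Ccl5. It lies at chr9:123962124-123968692 on the minus strand. Normalized counts were 156, 192 and 256 in Spl/LN with adjuvant alone, 117, 77.1 and 139 in Spl/LN with adjuvant/Fat1562, 2146 and 2065 in VAT with adjuvant alone, and 716, 497 and 529.6 in VAT with adjuvant/Fat1562. The 4 groups did not overlap one another. Ccr1 was 10.4-fold higher in VAT with adjuvant alone (log2 fold change 3.38, SE 0.21, adjusted p = 3.27e-09) and 5.17-fold higher in VAT with adjuvant/Fat1562 (2.37, SE 0.21, adjusted p = 3.02e-07). The peptide lowered it 3.63-fold in VAT (-1.86, SE 0.20, adjusted p = 1.16e-05). In Spl/LN the peptide lowered it 1.79-fold (-0.84, SE 0.21, adjusted p = 0.032), a call that was lost without Spl/LN adjuvant-alone replicate 2 or 3 (adjusted p = 0.0531 and 0.114), without Spl/LN adjuvant/Fat1562 replicate 1 or 2 (0.0789 and 0.16), in a fit of only the Spl/LN groups (0.0912) and by limma with quantile normalization (0.0821).

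Ccr2, the receptor for Ccl2 and Ccl7, which draws monocytes and T cells into inflamed tissue, was higher in VAT under both treatments. It lies at chr9:124101950-124113557 on the plus strand, and 3.22% of its 38-base stretches, the length of a read, occur in transcripts of other genes as well. Normalized counts were 2126, 2197 and 2552 in Spl/LN with adjuvant alone, 2293, 2800.5 and 2786 in Spl/LN with adjuvant/Fat1562, 6309 and 6775.5 in VAT with adjuvant alone, and 4741.5, 3676 and 3786 in VAT with adjuvant/Fat1562. The VAT groups lay above both Spl/LN groups and apart from each other. Ccr2 was 2.85-fold higher in VAT with adjuvant alone (log2 fold change 1.51, SE 0.12, adjusted p = 6.13e-08) and 1.55-fold higher after the peptide (0.63, SE 0.11, adjusted p = 0.000547). The peptide lowered it 1.61-fold in VAT (-0.69, SE 0.12, adjusted p = 0.00123), while in Spl/LN its difference of 0.20 (SE 0.11, adjusted p = 0.358) was not called and the groups overlapped.

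Ccr8, the receptor for Ccl1 and Ccl8 and a marker of tissue and tumor Treg cells, lies at chr9:120092114-120094906 on the plus strand. Normalized counts were 795, 746 and 794 in Spl/LN with adjuvant alone, 757, 1006 and 1033 in Spl/LN with adjuvant/Fat1562, 3255 and 2341 in VAT with adjuvant alone, and 6125, 5889.5 and 4830.4 in VAT with adjuvant/Fat1562. Every VAT library with the peptide lay above both VAT libraries without it, and these above every Spl/LN library. Ccr8 was 3.60-fold higher in VAT with adjuvant alone (log2 fold change 1.85, SE 0.15, adjusted p = 6.35e-08) and 6.02-fold higher with adjuvant/Fat1562 (2.59, SE 0.14, adjusted p = 7.9e-10). The peptide raised it 2.00-fold in VAT (1.00, SE 0.15, adjusted p = 0.000315). In Spl/LN the difference of 0.26 (SE 0.13, adjusted p = 0.319) was not called, and the groups overlapped.

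Ccr4, the receptor for Ccl17 and Ccl22 and a receptor of skin-homing and type 2 T cells, was called in no comparison. It lies at chr9:114490316-114504916 on the minus strand. Its normalized counts were 799, 1058 and 1003 in Spl/LN with adjuvant alone, 1375, 1036 and 1109 in Spl/LN with adjuvant/Fat1562, 1011 and 1207 in VAT with adjuvant alone, and 1147, 774 and 762 in VAT with adjuvant/Fat1562. The groups overlapped in all 4 comparisons. The largest of these 4 differences was -0.39 (SE 0.16, 95% interval -0.73 to -0.06, adjusted p = 0.107) between VAT and Spl/LN after the peptide, which was called without VAT adjuvant/Fat1562 replicate 1 (-0.61, adjusted p = 0.0131), by limma with quantile normalization (-0.48, adjusted p = 0.0306) and with no filter on low counts (-0.41, adjusted p = 0.0128). With adjuvant alone the tissue difference was 0.22 (95% interval -0.15 to 0.59, adjusted p = 0.46).

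Ccr6, the receptor for Ccl20, draws Th17 cells, B cells and a fraction of Treg cells to mucosal epithelium. The gene lies at chr17:8236043-8257141 on the plus strand. Normalized counts were 771, 739 and 815 in Spl/LN with adjuvant alone and 617 and 687 in VAT with adjuvant alone, against 354, 401 and 496 in Spl/LN and 433, 406 and 359.8 in VAT with adjuvant/Fat1562. In each tissue all libraries with the peptide lay below all those without it. The peptide lowered Ccr6 1.85-fold in Spl/LN (log2 fold change -0.89, SE 0.13, adjusted p = 0.000617) and 1.63-fold in VAT (-0.71, SE 0.14, adjusted p = 0.00484), the latter not called without VAT adjuvant-alone replicate 2 (-0.63, adjusted p = 0.0705). Between tissues it differed by -0.25 (SE 0.14, adjusted p = 0.277) with adjuvant alone, where the libraries did not overlap, and by -0.07 (SE 0.13, adjusted p = 0.809) after the peptide, where they did.

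Ccr10, the receptor for Ccl27 and Ccl28 that draws lymphocytes to skin and mucosa, ran against its place in this list, since its transcript was at or near 0 in VAT. It had 411, 172 and 228 counts in Spl/LN with adjuvant alone, 29, 23 and 8 in Spl/LN with adjuvant/Fat1562, 7 and 0 in VAT with adjuvant alone, and 0 in each of the 3 VAT libraries with adjuvant/Fat1562. In each comparison but that within VAT the groups did not overlap. As Ccr10 passed the filter on low counts only through Spl/LN, the filter set the direction of its calls between tissues. The peptide lowered it 13.6-fold in Spl/LN (log2 fold change -3.77, SE 0.51, adjusted p = 0.000559), and with adjuvant alone VAT lay below Spl/LN (-5.98, SE 0.76, adjusted p = 4.4e-05), a fitted value that rests on the 7 counts of VAT adjuvant-alone replicate 1, without which every remaining VAT library was at 0, and without replicate 2 it was -5.08 (adjusted p = 0.000893). After the peptide it was at least 6.40-fold lower in VAT than in Spl/LN, taking 3 counts per library as the floor (adjusted p = 0.00197), and the VAT groups were both at or near the floor. Ccr10, at chr11:101172997-101175443 on the minus strand, lies wholly inside Cntnap1 on the opposite strand with 0 shared exon bases, and Cntnap1 had 135, 34 and 48 counts in Spl/LN with adjuvant alone, 7, 11 and 13 in Spl/LN with adjuvant/Fat1562, 9 and 0 in VAT with adjuvant alone and 0 in VAT with adjuvant/Fat1562. The strand setting of the counting is not given in the sources used here, so reads of Ccr10 and of unspliced Cntnap1 transcript cannot be told apart, and Cntnap1 was itself called lower in VAT with adjuvant alone (-3.75, SE 0.92, adjusted p = 0.0106) and in Spl/LN after the peptide (-2.85, SE 0.71, adjusted p = 0.0371), calls that were lost on leaving out 2 and 4 of the 11 libraries. Cntnap1 passed the filter on low counts only through Spl/LN with adjuvant alone, so these calls could only be lower. The library highest in Ccr10, Spl/LN adjuvant-alone replicate 1, was also highest in Cntnap1, H2-Ab1 (241 counts) and H2-Aa (186 counts), both of which were also called lower after the peptide in Spl/LN, and without it the peptide difference in Spl/LN was -3.33 (adjusted p = 0.00439).

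The effect of the peptide was then compared between the tissues as the interaction term of the same fit, the log2 effect in VAT minus that in Spl/LN. It was called higher for 1 receptor (Ccr8) and lower for 2 (Cxcr6 and Ccr2), against 1.70% and 2.02% of all tested genes. For Cxcr6 it was -1.67 (SE 0.20, adjusted p = 0.000178), the peptide effect being 1.40 in Spl/LN and -0.27 in VAT. For Ccr2 it was -0.88 (SE 0.16, adjusted p = 0.0047), from 0.20 in Spl/LN and -0.69 in VAT. For Ccr8 it was 0.74 (SE 0.20, adjusted p = 0.0457), from 0.26 in Spl/LN and 1.00 in VAT, and this call was lost on leaving out any 1 of 8 libraries, most without VAT adjuvant-alone replicate 2 (0.53, adjusted p = 0.223). Ccr1 had -1.02 (SE 0.29, adjusted p = 0.0639) and was not called, but was called under 8 of the 18 alternatives, among them without Spl/LN adjuvant-alone replicate 3 (-1.23, adjusted p = 0.0144), without Spl/LN adjuvant/Fat1562 replicate 2 (adjusted p = 0.0306) and without VAT adjuvant/Fat1562 replicate 1 (adjusted p = 0.0318). Cxcr3 rose with the peptide in both tissues and Ccr6 fell in both, with interaction terms of -0.40 (SE 0.35, 95% interval -1.13 to 0.32, adjusted p = 0.629) and 0.18 (SE 0.20, 95% interval -0.23 to 0.60, adjusted p = 0.718). The Ccr4 term of -0.61 (SE 0.24, adjusted p = 0.177) was not called, but was called with no filter on low counts (adjusted p = 0.0237) and without VAT adjuvant/Fat1562 replicate 1 (-0.83, adjusted p = 0.0353).

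Of the 9 receptors, 5 (Ccr4, Ccr8, Cxcr6, Ccr1 and Ccr2) are on chromosome 9, and Cxcr6, Ccr1 and Ccr2 lie in a stretch of 435.1 kb from Ccr9 to Ccr2 that holds 7 receptor genes. The stretch was singled out after the values were seen, and its calls include those of the listed 3 given above. The counts below are therefore descriptive and no independent support. All 6 tested receptor genes in it were called higher in VAT with adjuvant alone (9.09% of all tested genes were), with a median log2 fold change of 2.83, against 2 of the 9 other tested genes described within and beside it, whose median was -0.000324. Besides the listed 3, these were Ccr9 (the gut-homing receptor, 4.01), Xcr1 (2.28, but 3.33 without Spl/LN adjuvant-alone replicate 3, and not called without VAT adjuvant-alone replicate 1, adjusted p = 0.105) and Ccr3 (0.92). Lztfl1, which lies inside the annotated span of Ccr9, was 1 of the 2 other genes called (2.41, SE 0.21), and the other, Slc6a20a, had a mean of 3.86 normalized counts over the 11 libraries. With adjuvant/Fat1562, 5 of the 6 receptor genes were called higher in VAT (8.26% of all tested genes), Xcr1 losing the call on leaving out any 1 of 3 libraries, 1 was called lower (Ccr3, -0.55, SE 0.18, adjusted p = 0.0425, lost on leaving out any 1 of 6 libraries), and 0 of the 9 other genes were called. The interaction was called lower for 4 of the 6 receptor genes, against 2.02% of all tested genes, and for 1 of the 9 others (Lztfl1).

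**Figure D4:**
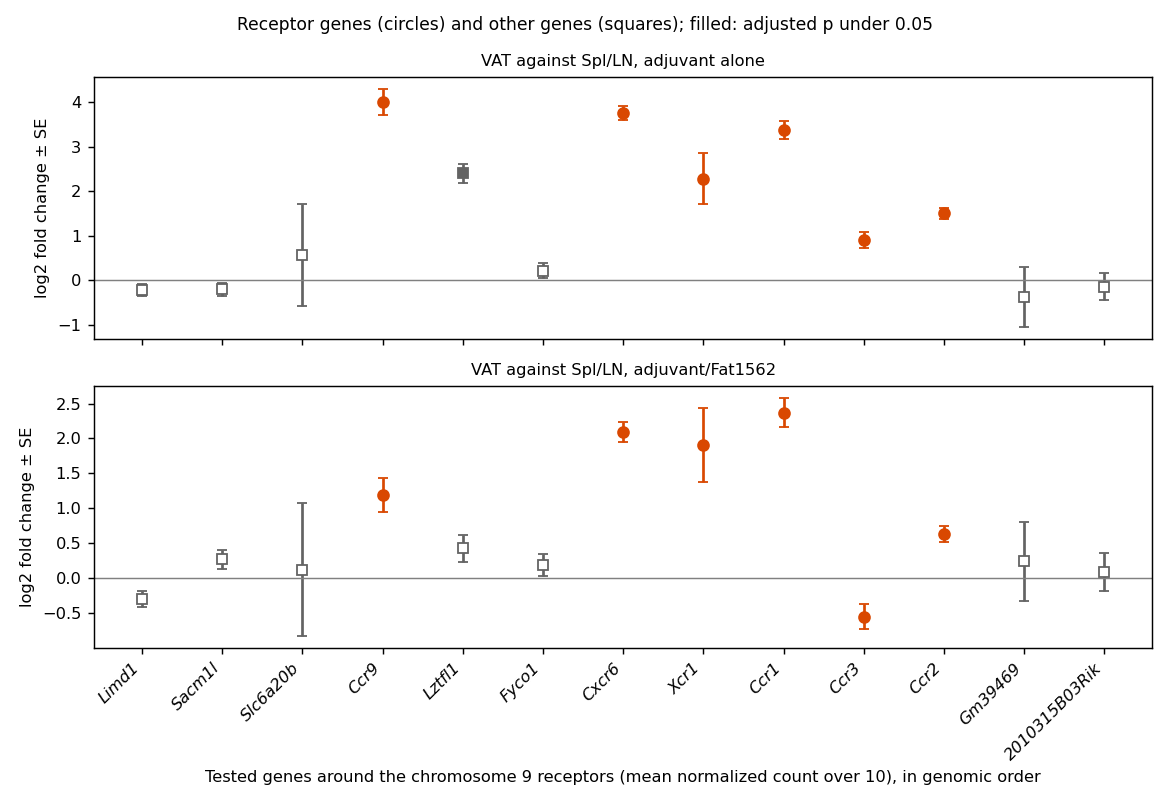
Log2 fold changes with SE between VAT and Spl/LN for the tested genes around the chromosome 9 receptors with a mean over 10 normalized counts, in genomic order and not to scale, with adjuvant alone (top) and adjuvant/Fat1562 (bottom). Orange circles (receptors) lie from 0.92 to 4.01 in the top panel, grey squares (other genes) from -0.37 to 0.57 except Lztfl1 at 2.41, and filled symbols have an adjusted p under 0.05.

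Among 14 other chemokine receptor genes listed, 7 were tested, and with adjuvant alone 4 of these were called higher in VAT and 2 lower, where 9.09% and 7.17% of all tested genes were. The 2 lower ones were Ccr7, the lymph node entry receptor, with 855 ± 114 normalized counts in Spl/LN (SD, n = 3) against 87.8 ± 11.9 in VAT (SD, n = 2, log2 fold change -3.29, SE 0.35, adjusted p = 2.88e-06), and Cxcr5, the receptor for B cell follicles (-4.01, SE 0.42, adjusted p = 2.28e-06, and -5.05 without VAT adjuvant-alone replicate 1). Cx3cr1, the fractalkine receptor of effector cells, had 10 and 7 counts in VAT with adjuvant alone and 306, 346 and 443 after the peptide (5.20, SE 0.59, adjusted p = 1.9e-05). It passed the filter on low counts only through the adjuvant/Fat1562 groups. A call of Cx3cr1 with the peptide could therefore only be higher and is no support in the counts below. In Spl/LN the peptide lowered Ccr7 (-3.07, SE 0.29, adjusted p = 1.28e-05) and raised Ccr9 (2.54, SE 0.27, adjusted p = 3.28e-05). Called after the peptide were 3 of the 7 in VAT (2 higher, 1 lower, against 4.32% and 3.97% of all tested genes) and 3 in Spl/LN (2 higher, 1 lower, against 2.58% and 1.40%).

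Of 21 listed chemokine genes, for ligands of the 9 receptors and for Ccl4, 6 passed the filter on low counts. Ccl5, a ligand of Ccr1, had 226 ± 22.4 normalized counts (Spl/LN, SD, n = 3) and 280 ± 31.7 (VAT, SD, n = 2) with adjuvant alone, and rose with the peptide to 697 ± 313 and 1039 ± 137 (SD, n = 3 each, adjusted p = 0.000921 and 0.000399). Ccl3, another Ccr1 ligand, had 12 and 2 counts in VAT with adjuvant alone and 170, 133 and 192 after the peptide (log2 fold change 4.37, SE 0.56, adjusted p = 7.61e-05), and the fitted value was 5.99 without adjuvant-alone replicate 1 and 3.67 without replicate 2. Ccl4, an inflammatory chemokine of the same family, had 9 and 20 counts against 248, 261 and 136 there (3.69, SE 0.84, adjusted p = 0.0103), and was not called without adjuvant-alone replicate 1 (3.15, adjusted p = 0.121). Cxcl10, the Cxcr3 ligand, was higher in VAT with adjuvant alone, at 344 ± 17.9 (SD, n = 2) against 66.2 ± 32.2 (SD, n = 3) in Spl/LN, and fell in VAT after the peptide by 2.46 (SE 0.42, adjusted p = 0.00107), while Cxcr3 rose there. Cxcl16, the Cxcr6 ligand, had 33 and 14 counts in VAT and 7, 4 and 0 in Spl/LN with adjuvant alone (2.85, SE 0.93, adjusted p = 0.0449), a call lost on leaving out any 1 of 8 libraries (fitted values 2.24 to 3.67 over the 11). Ccl1, a Ccr8 ligand, had 1, 27 and 27 counts in Spl/LN with adjuvant alone and 0 in each library of Spl/LN with adjuvant/Fat1562 and of VAT with adjuvant alone, and it passed the filter only through the first of these groups. A call between tissues with adjuvant alone could therefore only be lower. It was lost on leaving out any 1 of 4 libraries. These were Spl/LN adjuvant-alone replicates 2 and 3 (adjusted p = 0.0859 and 0.0612) and both VAT adjuvant-alone libraries. Of the 6 tested, 3 were called higher and 1 (Ccl1) lower in VAT with adjuvant alone, against 9.09% and 7.17% of all tested genes. After the peptide in VAT, 3 were called higher and 1 lower (Cxcl10), against 4.32% and 3.97%. Cxcl16 passed the filter only through the VAT groups and Ccl3 only through VAT with adjuvant/Fat1562. For these genes, as for Ccl1, the filter set the direction of such calls, so the counts are no support.

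Genes that carry the receptors' signal were listed as 34 G protein, kinase, arrestin and small GTPase genes, and 32 of them were tested. Of these 5 were called higher and 2 lower in VAT with adjuvant alone, 6 higher and 4 lower in VAT with adjuvant/Fat1562, 2 in each direction after the peptide in VAT, and 4 higher and 0 lower after it in Spl/LN. Over all tested genes the shares called higher and lower were, in the same order, 9.09% and 7.17%, 8.26% and 6.73%, 4.32% and 3.97%, and 2.58% and 1.40%, so that in VAT after the peptide the count lay near that of all genes. Pik3r5, the regulatory subunit of the PI3K that G proteins activate, had 428 ± 26.1 (SD, n = 2) normalized counts in VAT with adjuvant alone and 176 ± 28.2 (SD, n = 3) after the peptide (-1.28, SE 0.17, adjusted p = 8.68e-05). Rac1, a GTPase of the leading edge, rose there by 0.91 (SE 0.22, adjusted p = 0.0132), which was not called without either VAT adjuvant-alone library (adjusted p = 0.121 and 0.0715) or VAT adjuvant/Fat1562 replicate 3 (0.0555). Rap1b, which activates integrins, was higher in VAT with adjuvant alone by 0.86 (SE 0.11, adjusted p = 3.64e-05), and Plcb2, a phospholipase, was lower (-0.81, SE 0.17, adjusted p = 0.0022), though not called without VAT adjuvant-alone replicate 1 (adjusted p = 0.063).

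All 14 listed transcription factors of effector and tissue T cells were tested, and 5 were called higher and 0 lower in VAT with adjuvant alone (9.09% and 7.17% of all tested genes). Pparg, the adipose Treg factor, was higher by 4.95 on the log2 scale (SE 0.41, adjusted p = 1.09e-07), Rora by 1.81 (SE 0.12, adjusted p = 4.85e-09) and Gata3 by 1.25 (SE 0.13, adjusted p = 2.05e-06). After the peptide in VAT, 3 were called higher and 3 lower (4.32% and 3.97% of all tested genes). Gata3 fell by 0.82 (SE 0.13, adjusted p = 0.000586), Rora by 0.88 (SE 0.12, adjusted p = 0.000104) and Klf2, a factor of recirculating T cells, by 1.47 (SE 0.34, adjusted p = 0.0113), the last not called without VAT adjuvant-alone replicate 1 (adjusted p = 0.0953) or VAT adjuvant/Fat1562 replicate 2 (0.0608). In Spl/LN the peptide raised 4 factors and lowered 0, where 2.58% and 1.40% of all tested genes were called, and Pparg was among the 4 (2.12, SE 0.42, adjusted p = 0.00743).

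For each receptor, the genes with the most alike pattern were taken by the smallest root mean square difference of centred log2(normalized count + 1) over the 11 libraries, among tested genes with a mean of at least 50. The libraries share 4 groups, so this likeness follows the group means. Nearest to Cxcr6 were Crem (difference 0.28 on the log2 scale), Npnt (0.30) and the lipid droplet gene Plin2 (0.31), and with adjuvant alone Crem had 245 ± 8.88 normalized counts in Spl/LN (SD, n = 3) against 2266 ± 90.8 in VAT (SD, n = 2). Nearest to Ccr8 were the NF-kB subunit Rel (0.25), Got1 (0.28) and Cttn (0.30), and Rel had 527 ± 51.1, 570 ± 30.9, 1674 ± 279 and 2550 ± 275 in the 4 groups (SD, n = 3, 3, 2 and 3, in the order Spl/LN without and with the peptide, then VAT). Nearest to Ccr1 were Irs2 (0.37), the AP-1 gene Junb (0.42) and Ctla2a (0.42), each highest in VAT with adjuvant alone, where Junb had 40290 ± 3160 (SD, n = 2), and Ccr2 lay nearest to Klf7 (0.16), Pim1 (0.17) and Rora (0.18). Cxcr3 lay nearest to Podnl1 (0.29), Asb2 (0.39) and the T-cell receptor segment Traj58 (0.40), and Ccr6 to Pisd-ps1 (0.17), 2410002F23Rik (0.20) and Gatsl3 (0.21). Ccr4, with little spread of its own, lay near Med13l (0.13), Uspl1 (0.14) and Rab6a (0.14), and Cxcr4 near Agps (0.46), Pign (0.48) and Ero1l (0.49). No gene lay close to Ccr10, whose nearest were Nsg2 (1.39), Evl (1.49) and Id3 (1.61).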

How the data were processed

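Libraries from 1000 double-sorted cells were made with Smart-seq2 and sequenced as paired reads of 38 bases. The authors deposited gene counts by symbol. The submitters' processing notes name STAR 2.5.4, featureCounts and mm10, whereas the study's methods name Cuffquant for its own expression values, and the annotation and strand setting of the counts are not given in the sources used here. The deposited values are whole-number counts of reads per gene in 11 libraries, with no molecular identifiers, so amplified copies count as reads and intervals cover counting and replicate error only.

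Genes whose mean count, scaled to equal library totals, was above 10 in at least 1 group were kept (12932 of 52997). Libraries were scaled by TMM, and edgeR 4.0.16 (R 4.3.3) quasi-likelihood tests were fitted to all 4 groups at once, with contrasts for tissue within treatment, treatment within tissue and their interaction, two-sided, with Benjamini-Hochberg adjustment over all tested genes and a threshold of 0.05. A normalized count is a gene's count over the effective (TMM-adjusted) library total, times the mean effective total. Levels between genes were compared per kb of merged exons of GENCODE vM21. Named genes were the 9 receptors, up to 6 genes per list by largest change among those called in at least 1 comparison, the ligands of called receptors, overlapping or adjacent genes, and the 3 genes most alike in pattern. The members and lists were chosen with earlier results of these data known. The scripts were tested on simulated counts. Replicate pairs differed by 5.33 to 11.4 times counting noise, so none was a copied column. Amplification also adds to counting noise, so this cannot tell whether libraries came from the same cells or mouse. The labels tie no libraries of equal number to a shared mouse, and p-values measure the spread between these libraries. Alternatives were size factors of DESeq2 1.42.0, DESeq2 itself, limma 3.58.1 with quantile normalization, other filters, fits of only the groups compared, the replicate number as a term, and each library left out, which for genes other than the 9 receptors was chosen after seeing the data. Upstream windows come from RefSeq (GRCm38.p6). Some genes are not reported here and were left out of the lists.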

Additional observations from a re-analysis of the deposited data

Results flagged for a closer look

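The peptide effect differed between VAT and Spl/LN for 3 receptors by the interaction term of edgeR's quasi-likelihood test, in log2 units of VAT minus Spl/LN. For Cxcr6 the difference was -1.67 (SE 0.20, adjusted p = 0.000178), and it was called under all 18 alternatives, from -1.84 to -1.55. For Ccr2 it was -0.88 (SE 0.16, adjusted p = 0.0047), called under all 18, from -1.01 to -0.76. For Ccr8 it was 0.74 (SE 0.20, adjusted p = 0.0457), called under 9 of 18, from 0.53 to 1.00. No group held 4 or more libraries, so single libraries far from their group were not looked for.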

How the results depend on the processing

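Of 23 single-receptor differences called, 19 were called in the same direction under every alternative run, and 4 lost the call under at least 1: Ccr10 between tissues after the peptide (limma with quantile normalization, adjusted p = 0.0702), and, as given above, Ccr6 in VAT and Ccr1 in Spl/LN with the peptide and the Ccr8 interaction. Of 22 not called, 5 were called under at least 1. The number of receptors called in the interaction was 3, and 5 with no filter on low counts. 5 differences that were not called changed sign, with leave-one-out ranges of -0.0745 to 0.255 for Cxcr3 between tissues with adjuvant alone, -0.0193 to 1.24 for Cxcr4 and -0.17 to 0.0801 for Ccr6 between tissues after the peptide, -0.18 to 1.20 for Cxcr4 with the peptide in Spl/LN, and -2.21 to 3.77 for the Ccr10 interaction, which was 1.89 by limma. The causes were not tested.

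With the replicate number as a block, 5 receptors were called in each of the 4 comparisons and 3 in the interaction, the Ccr8 interaction losing its call (adjusted p = 0.0633) and that of Ccr1 gaining one (adjusted p = 0.0378). Deviations of same-numbered libraries correlated from -0.0687 to 0.0796 over 15 pairs. Pairs of Spl/LN and VAT had 0.0218 to 0.0796 under the same treatment and -0.05 to -0.00695 under different treatments. With 2 or 3 libraries per group these values cannot tell whether same-numbered libraries share a mouse. VAT with adjuvant alone has 2 libraries, and a lone library left by omission is assumed to vary like the other groups. Of 39 differences called for the other named genes, 27 were called with any library left out and 12 lost the call without at least 1, a choice of alternative made after seeing the data, and 0 changed sign.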
